A study of Mus musculus with 15 samples.

Results

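Clone E6.2 was compared with the A20 parental line from which it was made. A20 is a mouse B-cell lymphoma line of BALB/c origin, and E6.2 is 1 single-cell clone grown from A20 cells that had received Cas9 and a guide against exon 6 of Foxp1; its labels give a mutation in that exon, while the parental cells carry no guide. The comparison used all libraries of both lines, which is 6 of the 15 in the series, with 3 libraries per line collected from separate passages. It covered the 13904 genes, of 41388 in the count tables, that passed a filter on low counts. The other lines, used where stated, were clone E6.1 of the same guide and clones E7.1 and E7.2 of a guide against exon 7. Because E6.2 is a single clone, a difference made by the edit and one present in the founding cell cannot be told apart in these libraries.

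Foxp1 encodes a forkhead transcription factor that is needed for early B-cell development and falls as B cells enter the germinal center. Forkhead proteins bind short AT-rich motifs and can repress or activate the genes near them. In mature B cells and lymphoma the factor is known for its link to survival, antigen presentation and plasma cell differentiation, so transcripts of those programs were grouped below beside surface receptors, metabolism and signalling.

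Total counts ran from 26328054 to 36707548 in E6.2 and from 32308691 to 35759660 in parental cells. Levels are given as CPM, counts scaled to a fixed library total, after TMM scaling, a correction for library composition, and 3 counts, taken as the floor of detection, corresponded to 0.0801 to 0.118 CPM in these 6 libraries; the floor covers counting error only. The libraries of E6.2 were uneven. Replicate 1 held 10.3% of its counts on Gm42418, a locus that overlaps ribosomal RNA, against 0.315% and 0.154% in its other libraries and 2.22%, 0.228% and 0.262% in the parental libraries. The root mean square deviation of log2 CPM from the line's own mean was 0.604, 0.422 and 0.665 in E6.2 replicates 1 to 3 and 0.283 to 0.417 in parental cells. The sum of 9 B-cell defining markers was 4013 to 5303 CPM in E6.2 and 3965 to 4507 CPM in parental cells. Cd74 was its largest part, at 2150 to 2949 CPM in E6.2 and 1975 to 2250 CPM in parental cells. Mean levels of Cd74, Ighm, Igkc and Cd22 were higher in E6.2. Those of Ms4a1, Cd79a, Cd79b, Pax5 and Ebf1 were lower, and of all these only Ms4a1 was called. Cd3e, Trac, Lyz2, S100a8, Col1a2 and Krt18, which define T cells, myeloid cells, fibroblasts and epithelium, were at 0 counts in all 6 libraries. Other markers in the same lists were detected, with Lck at most at 1.81 CPM, Klrb1c at 2.68 CPM, Epcam at 3.43 CPM, Adgre1 at 7.56 CPM and Mpeg1 at 68.7 CPM.

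**Figure D1:**
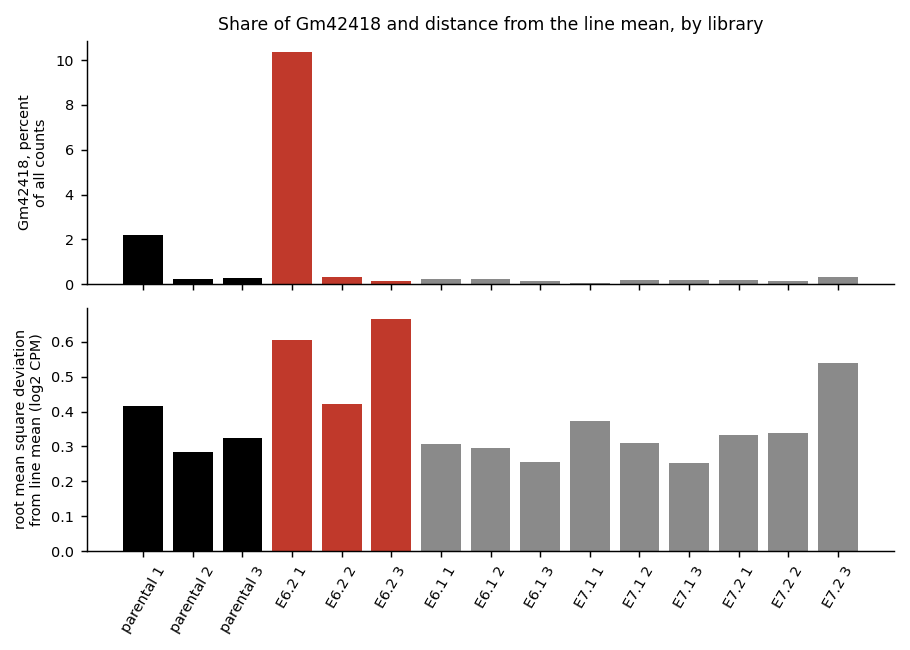
Upper bars give the percent of each library's counts on Gm42418 and lower bars the root mean square deviation of log2 CPM from the line's mean over the tested genes, for 15 libraries (parental black, E6.2 red, other clones grey). E6.2 replicate 1 stands at 10.3% in the upper plot, and E6.2 replicates 1 and 3 have the longest lower bars, 0.604 and 0.665.

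The targeted transcript itself was not called. Foxp1 (ENSMUSG00000030067, chromosome 6 of GRCm38, 98925338 to 99522721, minus strand) stood at 102, 166 and 147 CPM in the parental libraries and at 109, 104 and 105 CPM in those of E6.2. The groups overlapped, since parental replicate 1 lay below all E6.2 libraries, and the log2 fold change was -0.39 ± 0.20 (SE; adjusted p = 0.417, edgeR quasi-likelihood test). A two-sided exact permutation test of the same 6 values gave p = 0.4, with 0.1 the smallest p that 3 against 3 libraries allow. Counts over the whole gene do not show whether the reading frame is intact and therefore do not check the label. E6.1 stood at 104 ± 4.60 CPM (SD, n = 3), whereas E7.1 held 56.8 ± 13.03 and E7.2 43.0 ± 8.19 CPM. E6.2 exceeded the mean of the other clones by 0.74 ± 0.15 on the log2 scale (adjusted p = 0.0134), and by a margin that was not called without E6.2 replicate 1 (adjusted p = 0.0721).

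More genes were called lower than higher in E6.2. Of the genes tested, 140 (1.01%) were called lower and 23 (0.165%) higher than in parental cells (adjusted p under 0.05, changes of any size), and the median log2 fold change over all tested genes was 0.06. Over all genes, 6021 of the 13904 genes had a log2 fold change under 0, and at an unadjusted p under 0.05 there were 1815 genes, 944 lower and 871 higher. All 163 called genes had E6.2 libraries that lay wholly outside the parental range, as did 14.7% of all tested genes. Among the lower genes 45 fell by more than 8-fold, 22 by 4- to 8-fold, 44 by 2- to 4-fold and 29 by less than 2-fold. Among the 23 higher genes 11 rose by more than 8-fold. In bulk RNA, fewer cells with a transcript and less of it per cell cannot be told apart. The counts moved with the fit and the libraries: they were 37 and 10 when only these 6 libraries were fitted, 289 and 109 by DESeq2, 77 and 10 without parental replicate 1, and 102 and 18 without E6.2 replicate 1. With replicate 1 of both lines left out they were 58 and 7.

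**Figure D2:**
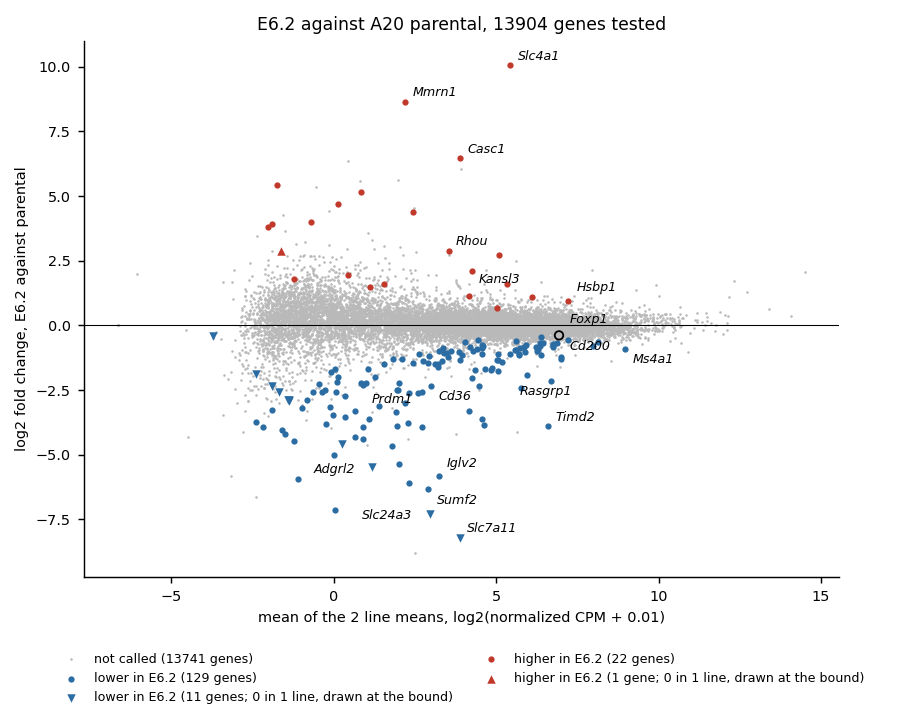
Each point is 1 of 13904 genes, with the log2 fold change of E6.2 against parental cells plotted against the log2 mean level (normalized CPM + 0.01). Blue marks 140 lower and red 23 higher genes, triangles are called genes at 0 counts in all libraries of 1 line drawn at their lower bound, and the open circle is Foxp1, which lies inside the grey cloud at -0.39.

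Several transcripts were not detected in E6.2 at this depth. Slc7a11 (chromosome 3, 50364936 to 50443613), the cystine and glutamate exchanger that supplies cysteine for glutathione, stood at 16.4, 40.7 and 31.8 CPM in parental cells (544, 1523 and 1091 counts) and at 0 counts in every E6.2 library. Set against the floor of 3 counts per library this was at least 297-fold lower (adjusted p = 0.000197). Slc24a3 (chromosome 2, 145167754 to 145642166), a potassium-dependent sodium and calcium exchanger, went from 9.04, 19.7 and 18.3 CPM to 0 counts, at least 157-fold lower (adjusted p = 0.000106). Adgrl2, a latrophilin of the adhesion G protein-coupled receptors, went from 4.96, 3.68 and 4.80 CPM to 0 counts, at least 44.97-fold lower. Atp6ap1l, named for its likeness to a subunit of the vacuolar proton pump, went from 3.36, 1.36 and 2.45 CPM to 0 counts, at least 24.0-fold lower. None of these 4 calls depended on 1 library, as each was called whichever of the 6 was left out. Tested genes beyond 2 of them were not called: Naa20, 259933 bases beyond Slc24a3, had a log2 fold change of -0.21 (adjusted p = 0.53), and Rps23, 17776 bases beyond Atp6ap1l, one of 0.09 (adjusted p = 0.933).

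Other strong decreases left a trace of the transcript. Sumf2, which modifies sulfatases in the endoplasmic reticulum, fell from 10.8, 17.1 and 15.98 CPM to 0.276, 0.212 and 0.0601 CPM (log2 fold change -6.35 ± 0.44 SE, adjusted p = 2.24e-06). Timd2, a receptor of the TIM family that takes up ferritin, was among the more abundant of the lower genes and fell from 181, 159 and 204 CPM to 7.83, 11.6 and 17.1 CPM (-3.89 ± 0.26, adjusted p = 2.08e-06). H1fx, a linker histone, held 44, 103 and 68 counts in parental cells and 0, 1 and 0 in E6.2, a ratio of 188 with an exact 95% counting interval of 33.4 to 7462. Kank4os, an antisense RNA, fell from 6.59, 7.24 and 9.90 CPM to 0, 0.514 and 0.0301 CPM, and its count cannot be separated by strand from that of Kank4, which stood at 0.0291 CPM in parental cells. Zc3h12d, a member of the regnase family of RNA-binding proteins, fell from 18.7, 4.17 and 6.23 CPM to 0.0787, 0.0907 and 0.241 CPM, and was not called without E6.2 replicate 1 (adjusted p = 0.0521). Aldh1a2, the retinal dehydrogenase that makes retinoic acid, fell from 1.87, 2.00 and 1.95 CPM to 0.118, 0.0605 and 0 CPM, a ratio of 35.7 with a counting interval of 15.04 to 111. The variable segment Iglv2 of the lambda light chain fell from 20.2, 16.2 and 19.3 CPM to 0.748, 0.181 and 0.0902 CPM, but reads of related segments are hard to assign.

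The higher genes include some that parental cells barely transcribe. Slc4a1 (chromosome 11, 102348824 to 102366203), the band 3 anion exchanger of red cells, rose from 0.151, 0 and 0.0873 CPM to 59.3, 83.0 and 116 CPM (10.07 ± 0.60, adjusted p = 1.05e-06). Of the red cell markers, Hba-a2 was at 0 counts in all 6 libraries, Hba-a1 was at 0 counts in the E6.2 libraries, and Alas2 was at 3.11 CPM in E6.2 replicate 1 and at most 0.271 CPM in its other libraries. Casc1 (chromosome 6, 145174834 to 145210970), a gene of ciliary axonemes, rose from 0.363, 0.240 and 0.378 CPM to 34.5, 23.2 and 30.0 CPM (6.47 ± 0.44, adjusted p = 2.08e-06). Mmrn1, the platelet and endothelial protein multimerin, went from 1, 1 and 0 counts to 362, 332 and 104 counts, a ratio of 456 with a counting interval of 126 to 3773. Rhou, an atypical small GTPase, rose from 3.02, 2.54 and 2.71 CPM to 16.9, 18.4 and 25.9 CPM (2.89 ± 0.30, adjusted p = 0.000117). The noncoding 2810408I11Rik rose from 10.8, 7.00 and 9.03 CPM to 64.4, 56.7 and 56.1 CPM. Its span overlaps Ccnyl1 on the other strand, at 17.6 CPM in parental and 19.1 CPM in E6.2 cells, and the counting did not use strand.

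Smaller or less secure increases completed the set. Dhh, the hedgehog ligand of the testis and nerve sheath, went from 2, 3 and 3 counts to 68, 78 and 40 counts, a ratio of 26.6 with a counting interval of 13.2 to 62.5, and was not called without parental replicate 1 (adjusted p = 0.0572). Psd3, an exchange factor for small GTPases, and its overlapping antisense RNA Gm15991 rose together, to 1.69, 1.3002 and 0.421 CPM and to 3.50, 3.63 and 3.28 CPM, from at most 0.160 CPM in any parental library. Which of this pair the reads belong to cannot be told without strand. The unplaced gene ENSMUSG00000096808 rose from 0.393, 0.641 and 0.466 CPM to 18.0, 7.53 and 5.80 CPM. Tmtc1, which adds mannose to cadherins, rose from 5.99, 6.78 and 8.73 CPM to 37.7, 26.9 and 28.0 CPM, and was not called without parental replicate 1 or 2 (highest adjusted p = 0.0794). Of the more abundant higher genes, Kansl3, a subunit of the NSL acetyltransferase complex, rose from 40.1, 50.3 and 42.0 CPM to 83.0, 73.4 and 126 CPM (1.09 ± 0.18, adjusted p = 0.00508). Wdr34, a dynein chain, stood at 34.5, 38.3 and 108 CPM against 18.6, 21.9 and 19.7 CPM; its log2 fold change of 1.59 became 0.86 without E6.2 replicate 3, and it was not called in any fit that left out a parental library. Hsbp1, a heat shock factor binding protein, rose from 91.2, 94.2 and 118 CPM to 151, 161 and 264 CPM (0.92 ± 0.20, adjusted p = 0.0365), a call that ended without E6.2 replicate 3 (adjusted p = 0.0667) or any parental library.

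Genes near Casc1 and Slc4a1 were read for shared change. Etfrf1, which lies 164 bases from Casc1, had mean levels of 22.1 CPM in parental and 13.6 CPM in E6.2 cells (log2 fold change -0.70 ± 0.25 SE, adjusted p = 0.269). Lrmp, which overlaps Casc1 on the other strand, had means of 64.2 and 36.5 CPM (-0.81 ± 0.23, adjusted p = 0.146). Because the counting did not use strand, reads in that overlap cannot be assigned to 1 gene by their strand. The neighbours of Slc4a1 were not called, with log2 fold changes of 0.28 for Ubtf and -0.08 for Rundc3a (adjusted p = 0.489 and 0.917). Over whole chromosomes, 10 of 499 tested genes on chromosome X were called lower, which is 2.00%, and other chromosomes with at least 20 tested genes had 0 to 1.52%.

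**Figure D3:**
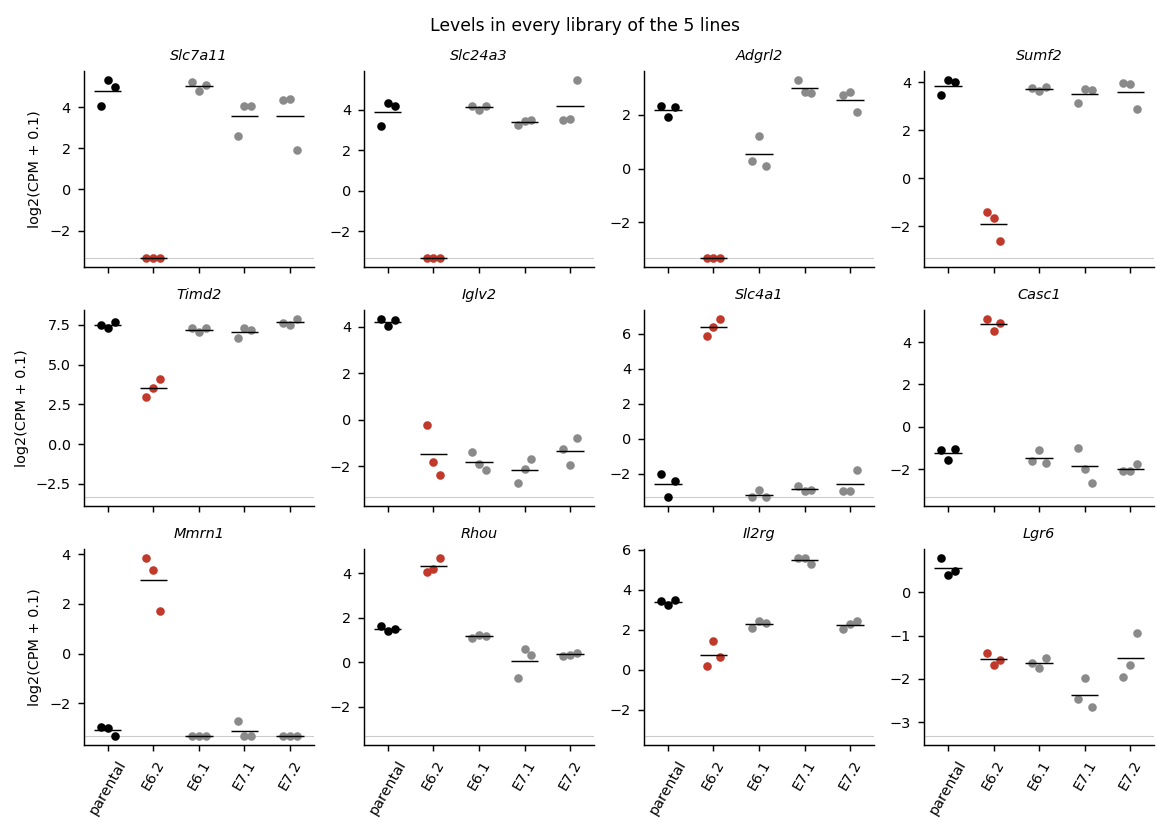
Each panel gives 1 gene, with log2(CPM + 0.1) of every library of the parental line (black), E6.2 (red) and the other clones (grey) and a bar at the mean of the 3 values; the grey line is a level of 0. Slc7a11, Slc24a3 and Adgrl2 sit on that line in all E6.2 libraries only, Slc4a1, Casc1, Mmrn1 and Rhou are raised in E6.2 alone, and Iglv2 and Lgr6 are low in all 4 clones.

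Promoter windows of the called genes were searched for the forkhead motif TGTTTAC on both strands, that is, also as GTAAACA. The windows, from RefSeq on GRCm38.p6, were the 250 bases before each annotated start and were found for 108 of the lower and 14 of the higher genes. The motif was in 4 of 133 windows of lower genes (3.01%) and in 0 of 22 windows of higher genes, against 2.15% of the 12024 windows of all tested genes and 3.17% of all 32851 windows. These shares are a description of letters in a window and say nothing of binding. The 4 genes were Slc7a11, Prdm1, Maml2 and Ifi213. Windows are shown for Slc7a11, whose transcript was lost, for the plasma cell regulator Prdm1, described next, and, without a motif, for Casc1, whose transcript rose. The motif is in capitals.
Slc7a11 (chr3:50443614-50443863, minus strand): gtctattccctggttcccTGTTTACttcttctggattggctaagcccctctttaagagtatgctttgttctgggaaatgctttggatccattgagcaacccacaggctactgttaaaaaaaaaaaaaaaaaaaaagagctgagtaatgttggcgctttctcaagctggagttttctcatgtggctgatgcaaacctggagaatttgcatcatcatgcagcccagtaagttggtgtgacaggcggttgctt
Prdm1 (chr10:44458749-44458998, minus strand): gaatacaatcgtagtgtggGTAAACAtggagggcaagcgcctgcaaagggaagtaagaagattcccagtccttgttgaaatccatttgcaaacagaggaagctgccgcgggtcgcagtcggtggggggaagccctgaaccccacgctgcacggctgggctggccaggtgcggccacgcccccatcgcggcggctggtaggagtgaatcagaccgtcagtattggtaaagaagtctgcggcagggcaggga
Casc1 (chr6:145210971-145211220, minus strand): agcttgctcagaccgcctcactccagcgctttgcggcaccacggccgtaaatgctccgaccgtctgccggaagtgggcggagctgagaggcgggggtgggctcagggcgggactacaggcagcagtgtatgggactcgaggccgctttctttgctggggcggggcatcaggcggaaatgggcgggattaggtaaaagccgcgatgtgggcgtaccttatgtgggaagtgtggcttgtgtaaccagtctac
In Slc7a11 the motif ends 226 bases before the start and in Prdm1 225 bases before it. The Slc7a11 window has 2 CpG dinucleotides and 43.2% G and C, that of Prdm1 15 and 59.2%, and that of Casc1 19 and 62.4%.

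A few genes of the plasma cell program were called lower. In a list of germinal center and plasma cell genes, 3 of the 23 tested were called lower and 0 higher, with a median log2 fold change of -0.42. Over all 13904 tested genes 1.01% were called lower and 0.165% higher, and the count of each list below is to be read beside these shares. The lists were chosen with earlier results of these data known, and whether a list exceeds these shares was not tested. Prdm1, which encodes Blimp-1, the repressor that drives plasma cell differentiation, fell from 12.9, 9.40 and 11.6 CPM to 1.54, 2.15 and 1.98 CPM (-2.58 ± 0.46, adjusted p = 0.0108). Irf4, a factor needed for plasma cells, fell from 48.8, 37.4 and 46.2 CPM to 16.4, 16.3 and 9.86 CPM (-1.64 ± 0.25, adjusted p = 0.00333). Ly6c2, a surface antigen of plasma cells and monocytes, fell from 0.816, 0.320 and 0.699 CPM to 0.0787, 0.0302 and 0 CPM, a ratio of 18.4 with a counting interval of 6.00 to 91.5. Prdm1 was not called without E6.2 replicate 1 (adjusted p = 0.0596), nor Ly6c2 without E6.2 replicate 2 or parental replicate 1 or 3. Jchain, which joins secreted antibody, stood at 1577 ± 275 and 1024 ± 151 CPM (adjusted p = 0.177), Mzb1 at 333 ± 26.2 and 425 ± 174 CPM, Zbtb20 at 308 ± 58.4 and 381 ± 338 CPM and Rgs13 at 387 ± 60.8 and 293 ± 69.2 CPM in parental and E6.2 cells, none of them called.

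B-cell surface proteins gave the most calls of any list, together with the Notch and Wnt pathway. Of 28 tested, 5 were called lower and 0 higher, the median log2 fold change was -0.42, and 13 of the 28 had an unadjusted p under 0.05, all of them lower, where 1815 of all 13904 genes did. Cd200, a ligand that restrains myeloid cells, fell from 206, 163 and 171 CPM to 59.8, 80.1 and 79.3 CPM (-1.30 ± 0.14, adjusted p = 0.000119). Fcmr, the IgM Fc receptor, fell from 73.6, 71.5 and 71.8 CPM to 31.9, 31.3 and 35.2 CPM (-1.14 ± 0.13, adjusted p = 0.000278). Ly75, the endocytic receptor DEC, fell from 65.3, 54.8 and 55.8 CPM to 28.9, 27.1 and 24.99 CPM (-1.12 ± 0.11, adjusted p = 0.000114). These 3 were called whichever library was left out. Ms4a1, which encodes CD20, had the highest level of all called genes and went from 660, 570 and 743 CPM to 273, 386 and 391 CPM (-0.91 ± 0.18, adjusted p = 0.0227). Its call ended without E6.2 replicate 1 or parental replicate 1 or 3 (highest adjusted p = 0.11). Spn, the sialomucin CD43, fell from 1.45, 1.01 and 1.11 CPM to 0.354, 0.212 and 0.180 CPM and was not called without parental replicate 1 (adjusted p = 0.0568). The most abundant members that were not called were Cd79b at 249 ± 32.2 and 208 ± 24.1 CPM, Cd24a at 261 ± 65.3 and 180 ± 42.1 CPM, Cd53 at 197 ± 13.1 and 136 ± 17.2 CPM and Btla at 161 ± 8.45 and 121 ± 16.5 CPM in parental and E6.2 cells.

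**Figure D4:**
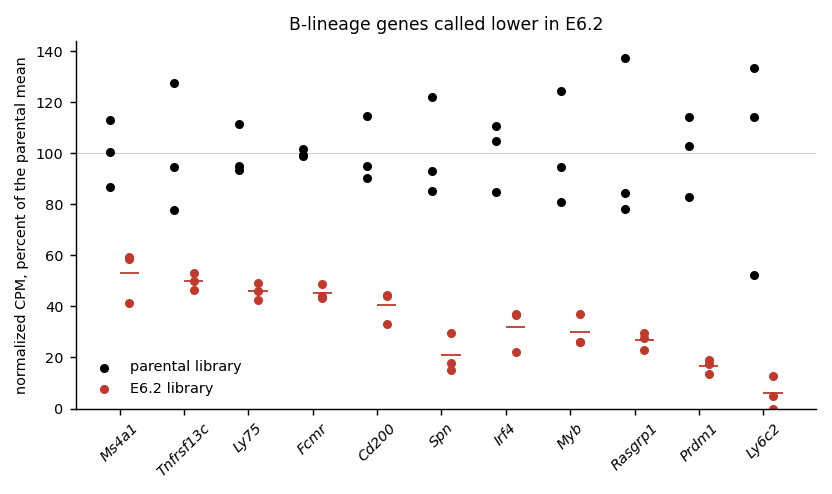
Normalized CPM of each parental (black) and E6.2 (red) library as percent of the parental mean, with a red bar at the E6.2 mean, for 11 called B-lineage, receptor and plasma cell genes. All E6.2 libraries lie below all parental libraries for every gene shown. The genes were chosen as called, and all 163 called genes lay outside the parental range, so this separation is no added evidence. The E6.2 means run from 53.2% of the parental mean for Ms4a1 to 5.94% for Ly6c2.

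Transcription factors and signalling molecules of the B lineage showed fewer calls. Of 25 B-lineage transcription factors 1 was called, Myb, a factor of progenitor proliferation, which fell from 38.6, 29.4 and 25.1 CPM to 8.11, 11.6 and 8.12 CPM (-1.74 ± 0.31, adjusted p = 0.0106) and lost the call without replicate 1 of either line (highest adjusted p = 0.0636). The list's median was -0.33, and Pou2af1, Mef2c, Ikzf1 and Ikzf3, its 4 most abundant other members, had log2 fold changes between -0.39 and -0.07 with adjusted p of 0.431 or more. Of 29 B-cell receptor signalling genes 1 was called: Rasgrp1, an exchange factor that activates RAS, fell from 134, 82.4 and 76.3 CPM to 22.4, 28.8 and 26.8 CPM (-1.91 ± 0.28, adjusted p = 0.00198). Its relative Rasgrp3 stood at 461 ± 12.4 and 411 ± 20.5 CPM (adjusted p = 0.558). In the NF-kB list 1 of 24 was called, Tnfrsf13c, the receptor for the survival factor BAFF, at 32.9, 20.1 and 24.4 CPM against 12.01, 13.7 and 12.9 CPM (-1.004 ± 0.20, adjusted p = 0.0227), with the call lost without E6.2 replicate 1 or 3 or parental replicate 1 or 3. That list's median was 0.27, and 0.15 and 0.14 without E6.2 replicate 1 and 3. No member of the 25 BCL2 family and death receptor genes was called, and 8 had an unadjusted p under 0.05, 7 lower and 1 higher. The forkhead list had 0 of 11 called and 0 at an unadjusted p under 0.05, with Foxo1 at 207 ± 13.96 and 173 ± 7.15 CPM and Foxk2 at 123 ± 5.57 and 123 ± 30.7 CPM.

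Antigen presentation and the interferon response were read next. None of the 22 MHC class II presentation genes was called, with 3 at an unadjusted p under 0.05 (1815 of 13904 over all genes). The list's median was 0.08 and turned to -0.14 without E6.2 replicate 3. Cd74, the invariant chain, stood at 2137 ± 144 and 2475 ± 420 CPM, H2-Aa at 716 ± 90.4 and 807 ± 377 CPM and H2-Ab1 at 306 ± 49.6 and 319 ± 134 CPM. For H2-Aa and H2-Ab1, E6.2 replicate 3 was the high library, with 1241 CPM of H2-Aa against 566 and 614 CPM in replicates 1 and 2, and 465 CPM of H2-Ab1 against 202 and 291 CPM. None of 23 MHC class I genes was called, with 2 at an unadjusted p under 0.05. Its median of -0.09 became 0.08 without E6.2 replicate 1, -0.26 without E6.2 replicate 3 and 0.04 without parental replicate 1. The interferon-stimulated list had a median of -0.53, which became -0.25 without E6.2 replicate 3 and -0.77 without E6.2 replicate 1. In it 3 of 34 were called lower and 0 higher. Ifi213, of the DNA-sensing p200 family, fell from 55.5, 30.0 and 30.2 CPM to 17.0, 10.4 and 8.57 CPM (-1.69 ± 0.32, adjusted p = 0.0153), Phf11a from 2.93, 1.20 and 1.19 CPM to 0.315, 0.363 and 0.211 CPM and Epsti1 from 14.9, 10.6 and 12.6 CPM to 5.87, 6.62 and 6.47 CPM. All 3 lost the call when at least 1 of the libraries was left out, Epsti1 in each of the 6. Stat2, which transmits the interferon signal, stood at 34.4 ± 10.7 and 31.5 ± 11.2 CPM and was not called. Of 25 innate sensors 1 was called, the inflammasome receptor Nlrc4, from 9.01, 5.77 and 4.98 CPM to 0.472, 0.242 and 0.0902 CPM (-4.65 ± 0.43, adjusted p = 4.8e-05), whichever library was left out.

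**Figure D5:**
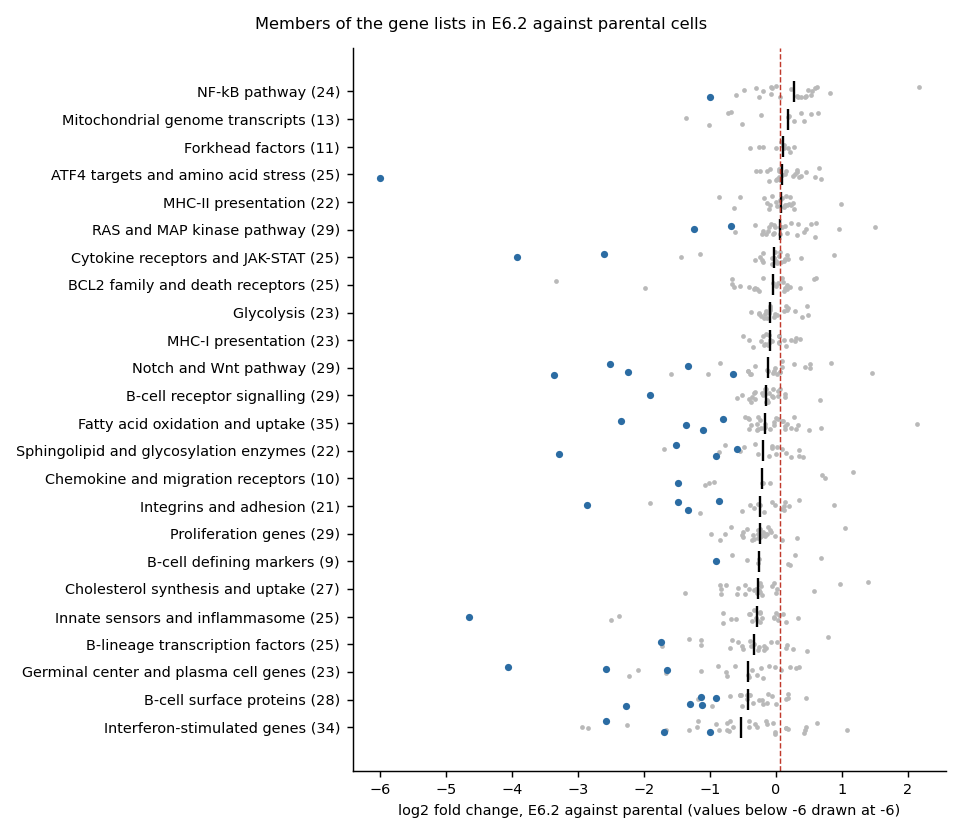
Log2 fold change of E6.2 against parental cells for each tested member of the lists with at least 9 tested genes (number tested in brackets), with called members in blue, other members in grey and a black bar at the list's median; the dashed red line is the median of all tested genes, 0.06. No called member lies to the right of 0, and with all libraries the medians run from -0.53 for interferon-stimulated genes to 0.27 for the NF-kB pathway.

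Adhesion molecules and cytokine receptors held further decreases. Of 21 integrin and adhesion genes 4 were called lower and 0 higher, against 1.01% and 0.165% of all tested genes. The integrin chains Itga6, Itgal and Itgb3 fell to 3.78, 4.90 and 5.08 CPM from 16.1, 9.91 and 12.6 CPM, to 65.4, 56.5 and 37.6 CPM from 102, 96.2 and 89.8 CPM, and to 15.1, 18.8 and 21.7 CPM from 60.8, 35.8 and 42.8 CPM. Ocln, the tight junction protein occludin, fell from 0.665, 0.801 and 1.46 CPM to 0.118, 0.121 and 0.150 CPM (-2.87 ± 0.40, adjusted p = 0.00166) and was the one of these 4 that was called in all fits that left out a library. Itgb1 and Itgb2, partners of the called chains, stood at 387 ± 29.9 and 410 ± 262 CPM and at 52.2 ± 0.768 and 57.8 ± 14.5 CPM. Of 25 cytokine receptor and JAK-STAT genes 2 were called. Il2rg, the common gamma chain of the IL-2 receptor family, fell from 10.9, 9.29 and 11.1 CPM to 1.02, 2.63 and 1.44 CPM (-2.60 ± 0.27, adjusted p = 0.000119), and Il22ra1, a chain of the IL-22 receptor, from 11.04, 12.7 and 13.5 CPM to 1.42, 0.847 and 0.241 CPM (-3.92 ± 0.43, adjusted p = 0.000173). Il9r and Il21r, whose products pair with the gamma chain, stood at 611 ± 233 and 796 ± 213 CPM and at 183 ± 30.0 and 147 ± 34.2 CPM. Among 10 tested chemokine and migration receptors and related factors 1 was called, Ebi3, a cytokine subunit, from 4.48, 4.06 and 4.22 CPM to 1.81, 1.66 and 1.11 CPM. Cxcr4 and Cxcr5 were at 282 ± 92.6 and 471 ± 232 CPM and at 30.3 ± 10.99 and 15.02 ± 6.51 CPM, not called.

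Among signalling pathways, of 29 Notch and Wnt genes 5 were lower and 0 higher: Maml2, a Notch co-activator, fell from 6.65, 6.84 and 7.22 CPM to 0.905, 0.998 and 0.120 CPM (-3.36 ± 0.46, adjusted p = 0.00143), Lgr6, an R-spondin receptor, from 1.63, 1.23 and 1.31 CPM to 0.276, 0.212 and 0.241 CPM, Cdk14, a cyclin-dependent kinase of Wnt receptors, from 6.68, 6.86 and 6.43 CPM to 1.26, 1.87 and 1.08 CPM, and Daam1, an actin regulator of noncanonical Wnt signalling, from 44.1, 52.0 and 47.8 CPM to 18.2, 19.6 and 19.6 CPM (-1.33 ± 0.13, adjusted p = 0.000106). Those 4 were called whichever library was left out. Adam10, the protease that cleaves Notch, stood at 364, 335 and 322 CPM against 177, 223 and 247 CPM (-0.66 ± 0.14, adjusted p = 0.0293), a call lost without E6.2 replicate 1 or any parental library. The other abundant members Ctnnb1, Adam17, Lrp6 and Apc had log2 fold changes of 0.09, -0.42, -0.04 and -0.03. Of 29 RAS and MAP kinase genes 2 were called lower, among them the Ral exchange factor Ralgps2, from 114, 93.7 and 91.8 CPM to 57.4, 69.1 and 61.3 CPM, a call that, of the 6 fits without 1 library, held only without E6.2 replicate 2. Braf, a kinase of this pathway, stood at 176 ± 8.04 and 173 ± 38.6 CPM and was not called.

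Metabolic lists held scattered decreases. In fatty acid oxidation and uptake 4 of 35 were lower and 0 higher, against 1.01% and 0.165% of all tested genes. Cd36, a scavenger receptor that takes up fatty acids, fell from 42.3, 24.0 and 43.6 CPM to 6.65, 10.2 and 4.87 CPM (-2.34 ± 0.34, adjusted p = 0.00199), and Ehhadh, a peroxisomal enzyme of beta-oxidation, from 13.9, 13.2 and 16.5 CPM to 6.06, 6.02 and 4.81 CPM (-1.37 ± 0.22, adjusted p = 0.00435). Acss1, a mitochondrial acetate ligase, and Pdk3, a kinase that holds back pyruvate dehydrogenase, fell by 1.11 and 0.81 on the log2 scale and lost the call without replicate 1 of either line. Of 22 sphingolipid and glycosylation enzymes 4 were lower: the ceramide synthase Cers6 fell from 14.5, 12.4 and 14.005 CPM to 5.51, 5.29 and 3.52 CPM, the fucosyltransferase Fut8 from 97.2, 97.2 and 109 CPM to 47.4, 65.5 and 48.7 CPM, the fucosidase Fuca1 from 29.8, 24.7 and 24.0 CPM to 17.3, 19.2 and 15.9 CPM and the xylosyltransferase Gxylt2 from 0.484, 0.561 and 0.349 CPM to 0.0787, 0.0605 and 0 CPM. Cers6 and Fut8 were called in all fits that left out a library, Fuca1 and Gxylt2 were not. Slc7a11 was the 1 gene called of 25 ATF4 targets, a list of genes induced by amino acid shortage, whose median was 0.09. The regulator Atf4 stood at 673 ± 122 and 819 ± 151 CPM and the ATF4 target Asns, asparagine synthetase, at 904 ± 116 and 965 ± 150 CPM. No gene was called among 27 of cholesterol synthesis, 23 of glycolysis, 29 of proliferation and 13 of the mitochondrial genome, where 3, 0, 0 and 0 had an unadjusted p under 0.05. Mki67 and Top2a, which mark dividing cells, stood at 1178 ± 345 and 1009 ± 483 CPM and at 904 ± 167 and 642 ± 54.4 CPM.

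Markers of other cell types were summed in each library. The summed level of 12 myeloid markers was 14.01 to 26.3 CPM in E6.2 and 43.7 to 77.4 CPM in parental cells, most of it from Mpeg1, a perforin-like protein that B cells also express, which fell from 68.7, 40.8 and 47.1 CPM to 21.7, 23.6 and 13.4 CPM (-1.42 ± 0.25, adjusted p = 0.00954; not called without parental replicate 1). The macrophage marker Adgre1 stood at 7.56, 1.58 and 2.36 CPM and at 0.984, 1.27 and 0.421 CPM, not called, while Lyz2, S100a8 and S100a9 were at 0 counts. T and NK cell markers summed to 2.14 to 5.51 CPM in E6.2 and 4.09 to 5.62 CPM in parental cells. Fibroblast and epithelial markers summed to 1.38 to 3.49 CPM and 1.31 to 2.84 CPM. Dcn, in that list, was called at 0 counts in E6.2 against 0.116 to 0.160 CPM, at least 1.33-fold lower, and in no fit that left out a library. The erythroid and platelet markers summed to 8.42, 1.24 and 2.23 CPM in E6.2 replicates 1 to 3 against 1.25 to 2.30 CPM, so the library rich in Gm42418 was the high one. The part of these markers in the results above was not tested.

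Of the called genes 96 fell outside the rule used to choose the genes above, 87 lower and 9 higher, and the following were picked after their values were seen. Among the lower ones, 6 were at 0 counts in all E6.2 libraries from parental levels of under 1 CPM on average, and the bounds ran from at least 3.66-fold for Proser2 to at least 7.57-fold for Ptprg. The rest ranged from -0.44 to -5.93 on the log2 scale. Reln, the secreted glycoprotein reelin, went from 69.2, 209 and 226 CPM to 48.8, 40.0 and 23.7 CPM (-2.17 ± 0.39, adjusted p = 0.0114), and was not called without parental replicate 3. Cryz, a quinone reductase, fell from 93.4, 87.4 and 94.0 CPM to 15.3, 19.1 and 16.7 CPM, and the X-linked homeobox gene Rhox5 from 44.0, 39.9 and 47.8 CPM to 2.87, 4.38 and 3.55 CPM (-3.60 ± 0.22, adjusted p = 1.05e-06). Klk4, a secreted protease, fell from 61.6, 16.5 and 19.7 CPM to 5.12, 2.21 and 2.62 CPM, and Vim, the intermediate filament vimentin, from 5.44, 4.19 and 4.37 CPM to 0.472, 0.454 and 0.692 CPM. Zfp980, a zinc-finger gene, was at 0 counts in parental cells and at 0.709, 0.605 and 0.571 CPM in E6.2, at least 7.30-fold higher. The abundant lower genes Sppl2a and Stk17b are not among these 96, as the rule named them for their level. Sppl2a, the protease that degrades the MHC class II invariant chain remnant, stood at 365, 294 and 316 CPM against 189, 230 and 135 CPM. The kinase gene Stk17b stood at 183, 167 and 180 CPM against 102, 133 and 122 CPM. Both lost the call in 5 of the 6 fits without a library.

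To ask which of these differences set E6.2 apart from the other edited clones, its libraries were tested against the mean of the other 3 clones. There, 476 genes (3.42%) were lower and 731 (5.26%) higher in E6.2. These counts rested on replicate 1 of E6.2, without which they were 172 and 127, while without replicate 3 they were 967 and 1522. The 7 tested non-polyadenylated RNAs were among the higher genes. Of these, Gm42418 stood at 107252, 3033 and 1699 CPM in E6.2 replicates 1 to 3 and at 607 to 3688 CPM in the other clones, so only replicate 1 lay outside their range. Both comparisons use the same E6.2 libraries, so the values below are not a second measurement of E6.2.

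Of the 140 genes lower than in parental cells, 110 were also called lower than in the other clones, and of the 23 higher genes 21 were also called higher. Some genes lost from E6.2 were present in the other clones, Slc7a11 at 3.69 to 38.002 CPM, Slc24a3 at 9.21 to 44.7 CPM, Adgrl2 at 0.976 to 9.83 CPM and Atp6ap1l at 1.48 to 5.07 CPM over 9 libraries. Ptprg, also at 0 counts in E6.2, was at 0 CPM in every library of the other clones, so its loss was shared. Timd2 stood at 147 ± 14.2, 134 ± 29.7 and 206 ± 27.0 CPM in clones E6.1 and E7.1 and in E7.2, and E6.2 lay below their mean by 3.71 on the log2 scale (adjusted p = 7.91e-07). Slc4a1 was at most 0.192 CPM and Casc1 at most 0.402 CPM in any library of the other clones (adjusted p = 1.01e-09 and 3.22e-09). Cd200 and Fcmr lay 1.41 and 1.40 below the other clones on the log2 scale (adjusted p = 7.96e-06 and 7.74e-06). Prdm1, Irf4 and Rasgrp1 were called lower against the other clones as well, by 2.01, 1.53 and 1.63 (adjusted p = 0.0122, 0.00111 and 0.00146).

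Other decreases were shared with the remaining clones. Iglv2, Lgr6, Phyhip and Meioc were called lower than parental cells in all 4 clones; Iglv2 had log2 fold changes of -5.83, -6.59, -7.14 and -5.86 in E6.2, E6.1, E7.1 and clone E7.2 and did not separate E6.2 from the others (difference 0.70, adjusted p = 0.419). Lgr6 had -2.51, -2.62, -3.76 and -2.40. Meioc, a meiotic RNA-binding partner, and Phyhip, named for its interaction with a peroxisomal hydroxylase, were picked for this pattern after their values were seen and had -3.63 and -4.31 in E6.2. Daam1 was lower in E6.2, E6.1 and E7.1, by 1.33, 1.05 and 1.06, and not in E7.2 (log2 fold change 0.34, adjusted p = 0.303). H1fx and Il22ra1 were also called lower in E7.1. Aldh1a2 was at most 0.321 CPM in any library of the other clones and did not separate E6.2 from them (difference -0.45, adjusted p = 0.812). Rhox5 stood at 6.03, 8.67 and 8.68 CPM in E6.1 and at 13.2, 14.1 and 10.6 CPM in E7.2. In E7.1 it held 50.6, 40.7 and 34.7 CPM. Tmtc1 was called higher in E7.1 and E7.2 too and differed from the other clones by 0.06 (adjusted p = 0.913).

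A few genes went opposite ways in different clones. Il2rg stood at 10.4 ± 0.976 CPM in parental cells, 1.70 ± 0.834 in E6.2 and 45.3 ± 5.17 CPM in E7.1, where it was called higher (log2 fold change 2.12, adjusted p = 0.000878), with 4.80 ± 0.629 and 4.67 ± 0.626 CPM in E6.1 and E7.2. Iqcg, an axonemal gene, was 4.47 ± 0.696 CPM in E6.2 against 13.8 ± 2.22 CPM in parental cells and 27.2 ± 3.84 CPM in E7.2. Rhou, raised in E6.2, was lower than parental cells in E7.1 at 1.03 ± 0.474 CPM (adjusted p = 0.04). Fam78a rose from 1.15 ± 0.156 to 3.20 ± 0.236 CPM in E6.2 and fell to 0.402 ± 0.0450 and 0.325 ± 0.0812 CPM in E7.1 and E7.2, although its rise in E6.2 was not called without any 1 of the parental libraries. In all, 9 of the 163 called genes were called in the opposite direction in at least 1 other clone.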

How the data were processed

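RNA-seq was read in 15 libraries, of which the 3 of E6.2 and the 3 of A20 parental cells were compared. The deposited values were raw counts per gene: per the labels and the study's methods, the authors aligned read pairs with HISAT to mouse GRCm38 with spike-in sequences and counted them with featureCounts 1.5.0, without strand, dropping multi-mapped and ambiguous pairs, so near-identical and overlapping genes lose reads. Groups came from the sample labels.

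Here the counts were filtered for low values (filterByExpr), scaled by TMM and fitted over all 15 libraries with edgeR 4.0.16 in R 4.3.3 (quasi-likelihood F-test, Benjamini-Hochberg adjustment over 13904 genes, called under 0.05). SE is the log2 fold change divided by the square root of F. For genes at 0 counts in a line the bound uses 3 counts per library, and for genes with at most 3 counts per library the ratio has an exact 95% counting interval; both cover counting error only. Total counts per library ran from 26328054 to 39181530 over the series. p-values measure the spread between passages within a line or clone, pooled over all lines of the series. E6.2 replicates 1 and 3 deviated most from their line's mean (0.604 and 0.665), so the pooled spread can be smaller than that of E6.2 itself. In data simulated for this comparison over 13904 genes, 77 of 102 genes changed 4-fold and 35 of 98 changed 2-fold were found, with 3 unchanged genes called. The simulation gave every line the same spread for each gene. It did not copy the uneven libraries of E6.2, so it cannot show how many false calls those libraries give.

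The genes and lists were chosen with earlier results of these data known. Named were Foxp1; the 10 genes per direction with the largest log2 fold change among called genes without overlap and with at least 1 CPM in the higher line; the 5 per direction with the highest level; every called list member; the 5 per direction with the smallest p against the other clones; and up to 4 uncalled members per list by level. Neighbouring genes, markers of other cells and genes said to be picked later were added. Some results the rule would include are not reported here. Alternatives were DESeq2 1.42.0, its size factors, fits of fewer libraries, no filter, a 2-fold threshold, a replicate block and leaving out libraries.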

Additional observations from a re-analysis of the deposited data

Results flagged for a closer look

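These results are listed because E6.2 differed from the mean of clones E6.1, E7.1 and E7.2 by the edgeR test of that difference itself. Values are adjusted p; all E6.2 libraries are shared with the comparison against parental cells. Lower in E6.2 were Slc7a11 (0.00013), Slc24a3 (3.48e-05), Adgrl2 (4.12e-06), Atp6ap1l (3.4e-06), H1fx (0.000532), Sumf2 (1.06e-06), Kank4os (0.000175), Timd2 (7.91e-07) and Iqcg (1.8e-06). Of these, Timd2 and Iqcg differed by -3.71 and -2.29 on the log2 scale and Sumf2 by -6.10. H1fx was also low in E7.1, at 0.0536, 0.0511 and 0.119 CPM, so its low level was not particular to E6.2.

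Higher in E6.2 were Slc4a1 (1.01e-09), Casc1 (3.22e-09), Rhou (8.79e-08), ENSMUSG00000096808 (9.15e-07), Fam78a (2.54e-06), 2810408I11Rik (7.96e-06), Mmrn1 (1.39e-05), Dhh (5.7e-05), Gm15991 (6.37e-05), Psd3 (0.000244) and Foxp1 (0.0134). Casc1 differed by 7.16, Rhou by 3.88, Fam78a by 2.92 and Foxp1 by 0.74 on the log2 scale. Foxp1 was the one result here that was not called without E6.2 replicate 1 (adjusted p = 0.0721). Its difference lay against the exon 7 clones, which held 37.1 to 64.3 CPM. Clone E6.1 stood at 103, 99.5 and 109 CPM, near the 109, 104 and 105 CPM of E6.2.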

How the results depend on the processing

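The number of calls depended on the fit and on single libraries, while no named gene changed direction. Of 67 named genes that were called, 24 were called under every alternative. Against 140 lower and 23 higher genes, a fit of these 6 libraries gave 37 and 10, DESeq2 289 and 109, and leaving out replicate 1 of both lines, chosen after seeing the data, 58 and 7; leaving out 1 library gave 77 to 154 and 10 to 60. Against 476 lower and 731 higher genes in the comparison with the other clones, DESeq2 gave 846 and 1168, both replicate 1 libraries left out 221 and 177, and a 2-fold threshold 210 and 468. The higher count was 1272 without the low-count filter, and leaving out 1 library gave 172 to 967 and 127 to 1522. Called list members, 40 in all, were 14 with 6 libraries, 67 with DESeq2, 17 without both replicate 1 libraries and 20 to 41 with 1 library left out. The Foxp1 difference ranged from -0.23 to -0.59 and was never called. Causes were not tested beyond the smaller number of libraries or genes.

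With the replicate number as a block the counts were 116 lower and 19 higher, and 399 and 455 against the other clones, with 35 list members called and Foxp1 at -0.36. Deviations of same-numbered libraries correlated at 0.167, 0.213 and 0.0211, and parental replicate 3 correlated best with E6.2 replicate 2 (0.326), so the numbers were not taken as pairs. Depth limits what can be said of genes under 0.0751 to 0.118 CPM.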
